A study of Mus musculus with 4 samples.

Results

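Regions of open chromatin at the ends of protein-coding genes, found in every library and of ordinary width, are described here. Peaks of the 4 libraries that overlapped by at least 1 bp were merged, and a region was kept where all 4 libraries had a peak, where it was narrower than 2500 bp, and where its midpoint lay within 1 kb of either end of a protein-coding RefSeq gene interval (GRCm38). This left 9654 regions, which are 9.91% of all 97394 merged regions and 35.9% of the 26867 regions with a peak in all 4 libraries. Another 20 shared regions at gene ends were 2500 bp or wider, 17177 shared regions of ordinary width lay away from gene ends, and 4605 regions at gene ends had a peak in 1 to 3 libraries. The regions were chosen by measured values, namely by the presence of a peak in every library and by its width, so their presence in all libraries is not a result.

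The libraries were ATAC-seq profiles, in which a transposase marks accessible DNA, of mouse SMARTA CD4 T cells, whose transgenic T cell receptor sees the GP61 peptide. Naive TOX WT or TOX KO cells had been given to B16-GP61 melanoma-bearing mice that had received cytoxan, a lymphocyte-depleting drug, and were sorted as CD4+ cells 11 days later from the tumor-draining lymph node (tdLN). The 2 WT libraries (WT-1, WT-2) came from Ly5.1+ Ly5.2+ cells gated high for PD1, LAG3 and CD39, whereas the 2 KO libraries (KO-1, KO-2) came from Ly5.1+ Ly5.2- cells gated low for the same proteins. The genotype thus went with a gate and with a Ly5 type, and their shares in any WT to KO difference cannot be told apart. The cells of both genotypes shared the transgenic receptor, the tumor, the cytoxan and the day. The labels do not say whether the 2 libraries of a genotype came from separate animals or how the TOX gene was deleted, so the spread between them may be technical. WT-1 held 56852 peaks, WT-2 61489, KO-1 43078 and KO-2 61773, and read depth is unknown. A series of 4 values is given throughout in this order of the libraries. Between 1603 and 1900 peak numbers were missing from each list, so an absent peak may be a removed one.

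A promoter is the DNA around a transcription start, where general transcription factors and RNA polymerase II assemble. Most promoters of genes that are used in every cell lie in CpG islands, carry no nucleosome just before the start in nearly every cell type, and bind factors such as SP/KLF, ETS and NF-Y proteins. Promoters of genes used in 1 tissue more often have few CpG dinucleotides and depend on factors of that tissue, and in T cells much of the specific control lies in enhancers away from the gene.

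The 3 sequences that follow are promoters of regions among the top 10 by the lowest of their fold ranks in the libraries. They are shown because they share a repeated box. Each holds the 150 bases before the listed start, 5′ to 3′ (RefSeq, GRCm38.p6), and capitals mark matches to the motifs searched, which are named with their letters further on. In Flad1 (FAD synthase) 3 copies of CCAAT, the box bound by NF-Y, stand in capitals, and in 2610008E11Rik 3 copies stand beside a GC box (GGGCGG). In Msmo1, an enzyme of cholesterol synthesis, 2 CCAAT boxes stand beside 2 GC boxes and an AP-1 motif.
Flad1 (chr3:89411882-89412031, minus strand): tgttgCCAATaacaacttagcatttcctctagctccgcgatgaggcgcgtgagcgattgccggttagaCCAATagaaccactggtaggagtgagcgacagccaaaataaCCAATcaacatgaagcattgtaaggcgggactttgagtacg
2610008E11Rik (chr10:79097601-79097750, minus strand): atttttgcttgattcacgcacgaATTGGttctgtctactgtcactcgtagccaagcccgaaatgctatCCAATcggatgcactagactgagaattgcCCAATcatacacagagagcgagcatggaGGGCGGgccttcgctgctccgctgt
Msmo1 (chr8:64733579-64733728, minus strand): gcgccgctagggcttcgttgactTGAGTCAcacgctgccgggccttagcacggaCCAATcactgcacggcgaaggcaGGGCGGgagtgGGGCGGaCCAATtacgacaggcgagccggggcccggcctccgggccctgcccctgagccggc

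For comparison, the next 4 promoters are a ribosomal protein gene (Rpl31), an adaptor of T cell receptor signalling (Bcl10), and 2 genes whose regions ranked higher in both WT libraries, Plcg2 (phospholipase C gamma 2) and Dennd2d. Rpl31 shows 4 GC boxes, Bcl10 a GC box and a CCAAT box read on the other strand (ATTGG), Plcg2 2 GC boxes and an E-box (CACGTG), and Dennd2d 1 GC box. None of these 4 windows holds more than 1 CCAAT box. The windows lie inside the regions and outside other gene intervals. Dennd2d was picked after its values were seen, and ranked at 63.4, 67.9, 3.85 and 32.3.
Rpl31 (chr1:39367701-39367850, plus strand): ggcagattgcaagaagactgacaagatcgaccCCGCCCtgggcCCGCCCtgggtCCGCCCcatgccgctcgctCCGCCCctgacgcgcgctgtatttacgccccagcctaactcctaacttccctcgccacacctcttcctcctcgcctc
Bcl10 (chr3:145924112-145924261, plus strand): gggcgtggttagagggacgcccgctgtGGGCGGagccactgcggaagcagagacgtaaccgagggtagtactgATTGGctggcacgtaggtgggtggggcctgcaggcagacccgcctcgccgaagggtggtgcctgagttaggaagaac
Plcg2 (chr8:117498125-117498274, plus strand): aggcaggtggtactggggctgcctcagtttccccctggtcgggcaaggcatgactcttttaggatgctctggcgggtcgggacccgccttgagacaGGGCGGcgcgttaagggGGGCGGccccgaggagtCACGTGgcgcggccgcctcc
Dennd2d (chr3:106482281-106482430, plus strand): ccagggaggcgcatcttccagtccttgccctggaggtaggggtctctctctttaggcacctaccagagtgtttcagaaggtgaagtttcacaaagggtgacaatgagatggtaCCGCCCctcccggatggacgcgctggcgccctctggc

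The regions lay on the starts of genes. With strand taken from RefSeq starts, 6589 regions (68.3%) were at the start of 1 gene, 849 (8.79%) at 2 or more starts and 426 (4.41%) at far ends only, and for 1790 (18.5%) no strand was listed. Among 837 regions with exactly 2 starts, the genes pointed apart in 530, with a median of 98 bp between the starts, pointed at each other in 285 and ran the same way in 22. In 6329 regions with 1 start, the peak summit lay a median of 36 bp before the start in WT-1, 35 bp in WT-2, 34 bp in KO-1 and 35 bp in KO-2. Between 71.3% and 73.4% of the summits were upstream of the start, and between 65.5% and 66.6% lay within 100 bp of it. The midpoint of the region lay a median of 68 bp after the start, so the opening reached further into the gene than before it, with its highest point just upstream. In the printed promoters the summits lay at -133, -129, -131 and -131 bp from the start of Flad1, between -137 and -112 bp at Msmo1, and between -48 and -40 bp at 2610008E11Rik. The summits of these 3 genes and of Bcl10 (-10, -15, -16 and -10 bp) fell within the printed stretches. Those of Plcg2 lay at -7, -10, 1 and -12 bp, those of Rpl31 at 17, 17, -43 and 17 bp and those of Dennd2d at 33, 12, 28 and 18 bp, so most of the latter were past the printed bases.

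**Figure D1:**
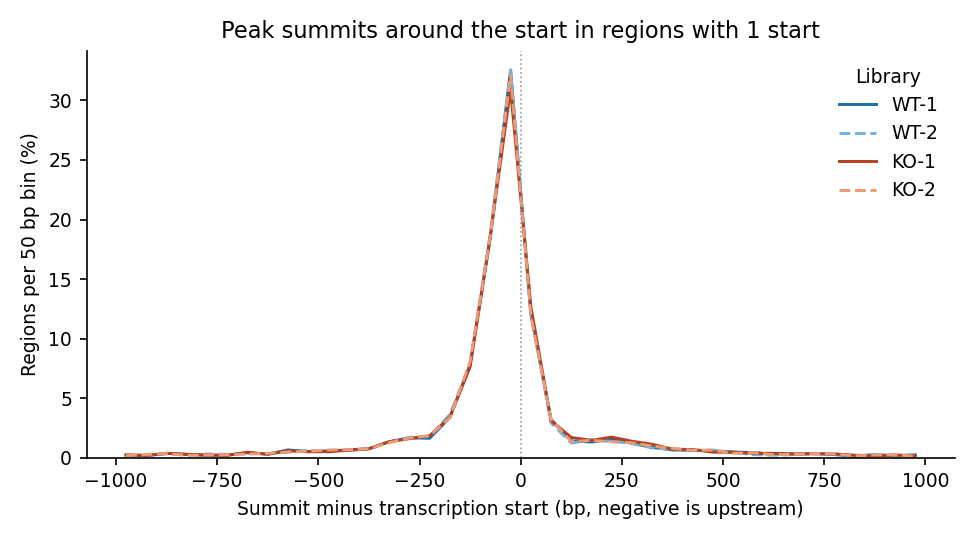
Share of regions (percent per 50 bp bin) by the distance of the peak summit from the transcription start in bp, negative upstream, for 6329 regions with 1 start, 1 line per library. The 4 lines lie on each other and peak in the bin just before the start.

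The 426 regions at far ends only had a median width of 626.5 bp, against 1140 bp at single starts. Their median fold percentile was 63.9, 65.1, 54.3 and 66.9, where single starts had 89.6, 90.4, 85.9 and 89.2. The far ends were lower in each of the 4 libraries, and no test was run on this split. A fold percentile here is the rank of a peak's deposited fold enrichment within its own library's list, from 0 for the lowest to 100 for the highest, so it compares regions within a library and not levels between libraries. Regions at 2 or more starts had the highest medians of these classes, from 91.3 to 93.6 and a median width of 1227 bp.

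Taken over all 9654 regions, the median fold percentile was 88.9, 89.9, 85.3 and 88.5. Shared regions away from gene ends, under the same width limit, had 65.5, 68.4, 59.9 and 72.3. Gene ends were higher in 4 of 4 libraries, by 23.4, 21.4, 25.5 and 16.2 points, a mean of 21.6 ± 3.95 points (SD, n = 4), with a two-sided exact sign-flip permutation p of 0.125, the smallest that 4 libraries can give. The peaks were wider as well. Median peak width within a region was 989 bp, 1010 bp, 922 bp and 958.5 bp, against 491, 530, 435 and 531 bp away from gene ends. That difference was 473 ± 31.3 bp (SD, n = 4), in the same direction in 4 of 4 libraries. It is a description with no test, since width is part of the rule. KO-1, the library with the shortest list, had the lowest median in both measures. The regions held 19.3%, 17.1%, 25.4% and 17.7% of the 4 lists, but 78.3%, 77.6%, 81.6% and 70.5% of the strongest 10% of them by fold. Shared regions away from gene ends held another 20.2%, 20.8%, 18.4% and 29.4% of that strongest 10%. The whole lists also hold peaks found in fewer libraries, so the contrast with them is not free of the rule.

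**Figure D2:**
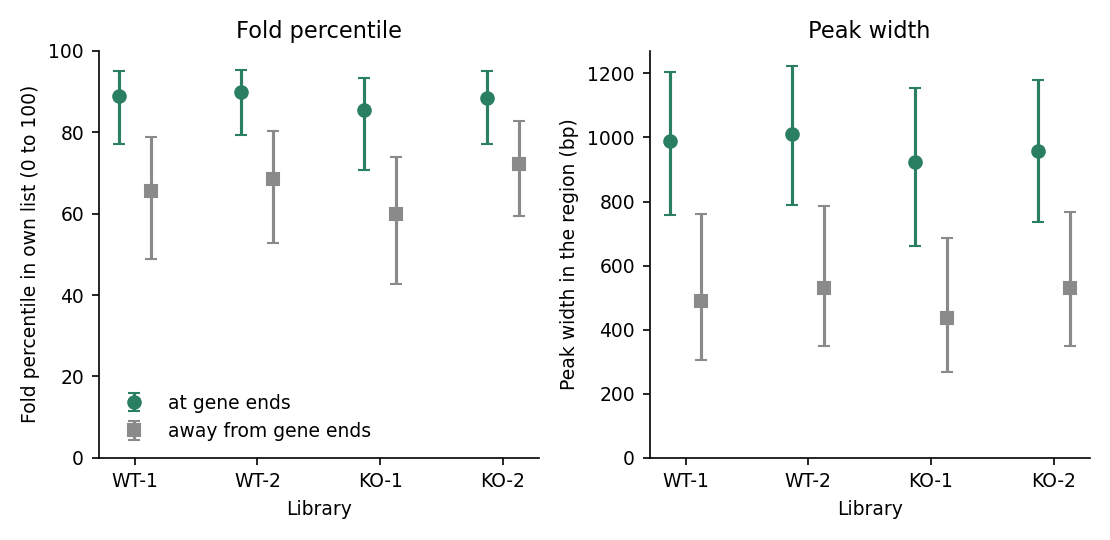
Median (points) and quartiles (bars) of the fold percentile within each library's own list (left) and of the peak width in bp (right), for 9654 shared regions at gene ends and 17177 away from them. In each library the gene-end median stands above the other, by 16.2 to 25.5 points on the left.

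Strength was not shared evenly among the regions. In all 4 libraries 3056 regions (31.7%) ranked above the 90th percentile of the list and 8327 (86.3%) above the 50th, while 274 (2.84%) ranked below the 50th and 18 below the 10th. Merged width ran from 181 to 2456 bp, with a median of 1129 bp and quartiles of 913 and 1347 bp. In 4 groups of 2413 or 2414 regions, ordered by the lowest of a region's 4 percentiles, the median width was 787 bp in the weakest group and 1172, 1226 and 1160.5 bp in the next ones. The strongest group was not the widest.

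By the lowest of the 4 percentiles, the top 10 regions were at Cdc25c, Hsd17b7, Golph3l and Hormad1, Exoc4, Gatb, Flad1, 2610008E11Rik, Msmo1, Yipf5 and Tasp1, with Golph3l and Hormad1 sharing 1 region. The fold enrichment at Hsd17b7, another enzyme of cholesterol synthesis (chromosome 1, 169968758 to 169969734), was 21.9, 21.2, 17.0 and 23.9. At Cdc25c, the phosphatase that drives entry into mitosis, it was 22.8, 23.6, 16.7 and 28.0. Flad1 had 19.8, 23.1, 15.3 and 23.8. In these 3 regions KO-1 had the lowest fold of the 4 libraries, while every percentile was above 99.8. The 10 regions were 729 to 1220 bp wide. At the other end stood Ap3m2, A930018O16Rik with Tent4a, Mnt, Skil and Gm33851, whose highest percentile in any library was 2.45 and whose fold enrichment ran from 1.78 to 2.61. Mnt, a partner of MAX that opposes MYC, had a region of 245 bp with its midpoint 546 bp from the gene end, and those of the other 4 lay 535 to 852 bp from it.

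At the limits of the rule, the widest regions kept were at Stat6 (2456 bp) and at Zbtb1 with Zbtb25 (2451 bp), and the narrowest left out were at Ncoa2 (2506 bp) and Btg2 (2515 bp). Stat6 ranked at 80.0, 83.7, 81.7 and 73.3, and Ncoa2 at 88.0, 83.5, 85.7 and 85.9. Cytip and Trim69 lay just within the distance limit at 1000 bp, with percentiles of 52.2 to 64.0 and 1.66 to 47.2. The 2 regions just beyond it ranked from 12.4 to 87.8.

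The RefSeq promoter table gives 250 bases before and 50 after a start, 300 in all, and 15533 of 21627 protein-coding genes (71.8%) had a start listed near the interval's start. Of these starts 7728 had a shared region of ordinary width and 6617 had no region in any library. Median GC content was 61.7% at the former and 48.3% at the latter, and the ratio of observed to expected CpG was 0.80 against 0.214. Starts with a region in 1 to 3 libraries (1177) stood between, with 58.3% and 0.506. No test was made, since neighbouring starts and gene families share sequence.

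Of 13 motifs searched on both strands, 8 were more frequent at shared starts than at starts with no region and 5 were less frequent. The GC box of SP/KLF factors (GGGCGG) was in 69.6% of shared starts and 20.8% of starts with no region, and in 47.4% of all 15533 starts. The ETS motif (CCGGAAG) was in 21.0% and 3.46% (all starts 12.2%), and the motifs of NRF1 (GCATGCGC) in 6.21% and 1.35% (3.77%), of BANP (TCTCGCGA) in 2.74% and 0.363% (1.53%) and of YY1 (AAGATGGCG) in 3.58% and 0.438% (2.01%). CREB/ATF (TGACGTCA), ZNF143 (ACTACAATT) and the E-box (CACGTG) had 3.82%, 0.828% and 11.1% against 0.922%, 0.287% and 4.87%, with 2.41%, 0.573% and 8.11% of all starts. Lower shares at shared starts were found for the TATA box (TATAAA, 6.08% against 23.3%, all starts 13.8%), RUNX (TGTGGTT, 3.44% against 6.42%, 4.82%), AP-1 (TGACTCA, 2.81% against 6.62%, 4.59%) and ISRE (TTTCNNTTT, 7.36% at shared and 9.88% at all starts). The CCAAT box was in 40.2% of shared starts, 40.8% of starts with no region and 39.8% of all. Every more frequent motif but that of ZNF143 contains CG, and none of the less frequent ones does. The CpG ratio of the same starts was 0.80 against 0.214. How far base composition accounts for these shares was not tested. Some motifs overlap, and a match is a description of the letters and not of binding.

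Among the shared starts the share with a CCAAT box was higher at stronger regions. The 7728 starts were put in 10 groups of 772 to 774 by the lowest-library percentile. CCAAT was in 32.3% of the weakest group, in 33.8% of group 5, in 50.1% of group 9 and in 67.7% of the strongest group (523 of 772 starts). Among the 100 starts with the strongest regions 81 had it and 57 had it at least 2 times, against 8.54% of the weakest group with at least 2. The GC box went from 62.7% to 72.4% between the end groups and the TATA box from 8.93% to 3.76%. The ETS motif went from 7.63% to 27.2% as well, but was already at 22.5% in group 4. GC content was 61.3% in the weakest and 61.0% in the strongest group, and the CpG ratio 0.666 and 0.812. The CCAAT boxes of the strongest group had a median position of -79 bp, against -86.5 bp in the weakest group and -93 bp at starts with no region. These shares describe letters and strength in the same libraries, with no test. The printed promoters of Flad1, 2610008E11Rik and Msmo1 belong to the starts with several boxes.

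**Figure D3:**
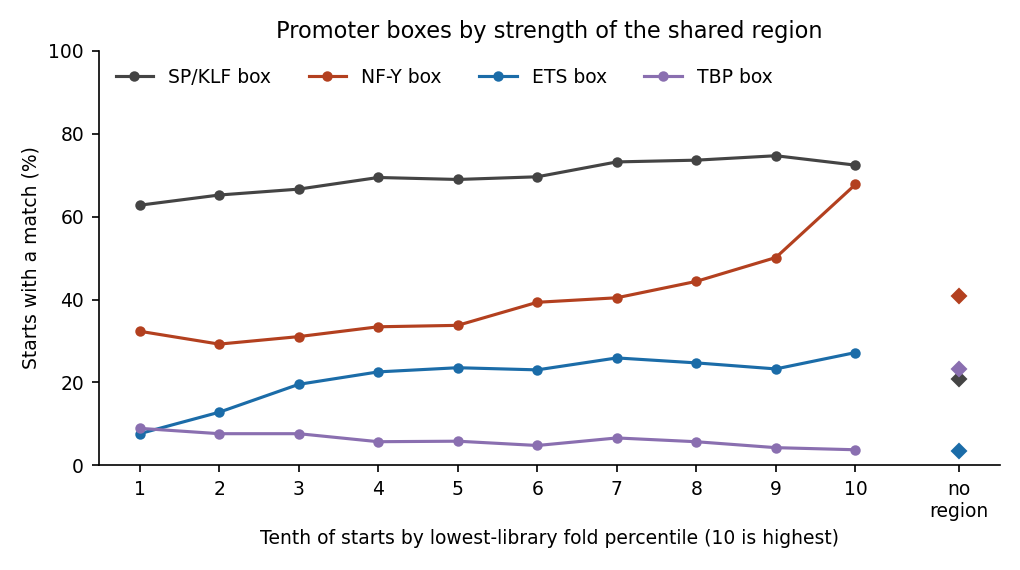
Share of starts (percent) with a match to the SP/KLF, NF-Y, ETS and TBP boxes in the 300-base promoter window, for 10 groups of 7728 starts ranked by the lowest-library fold percentile, and (diamonds) at 6617 starts with no region. The NF-Y line climbs from 32.3% to 67.7%, while its diamond stands at 40.8%.

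A shared region at an end was found for 10352 of 21627 protein-coding genes (47.9%). For 2126 genes (9.83%) the ends had a region in 1 to 3 libraries only, and for 9128 (42.2%) none. Of the regions 8144 belonged to 1 gene, 1479 to 2 and 31 to 3. Of the 11254 genes with no shared gene-end region, 818 (7.27%) had a shared region at another listed start inside the gene interval or near it, so the counts that follow concern gene ends and not all promoters.

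Genes for the basic machinery of the cell had a region more often than the 47.9% of all genes, with no test made of lists. All 28 genes of RNA polymerase subunits had one, 25 of 26 cell cycle and replication genes, 74 of 78 mitochondrial ribosomal protein genes, 42 of 45 splicing factor genes, 28 of 30 Mediator genes and 76 of 85 ribosomal protein genes. The median fold percentiles of the ribosomal protein regions were 91.5, 93.0, 89.5 and 91.6, a little above the 88.9, 89.9, 85.3 and 88.5 of all the regions. Polr3k, a subunit of RNA polymerase III, ranked at 99.7, 99.9, 99.8 and 99.1, and Med23 of the Mediator complex at 99.6, 99.96, 99.8 and 99.7. Psma2 of the proteasome and Mrpl32 of the mitochondrial ribosome share 2 regions, and the stronger one (chromosome 13, 14612643 to 14613624) ranked at 99.8, 99.3, 98.9 and 99.3. Cox7c, a subunit of cytochrome c oxidase, ranked at 99.96, 99.8, 98.3 and 99.6. Among the aminoacyl-tRNA synthetases, which load tRNAs with amino acids, 33 of 37 genes had a region, with Tars at 99.8, 99.7, 99.8 and 99.7. Genes of these lists with no region at an end include Rpl10l, a form known from testis, and also Rps25 and Ccna2, which dividing cells use. Cox6b2, another testis form, had one in 1 to 3 libraries.

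The large families were split. Zinc finger Zfp genes had a region for 261 of 397 genes (65.7%) and solute carriers for 172 of 371 (46.4%). Olfactory receptors, which neurons of the nose use 1 at a time, had one for 5 of 1106 genes (0.452%), vomeronasal receptors for 3 of 353, keratins and keratin-associated proteins for 2 of 105 and beta defensins for 0 of 42. The 5 olfactory receptor genes were Olfr433, Olfr157, Olfr530, Olfr658 and Olfr1393. Olfr433 ranked at 87.3, 82.8, 75.7 and 87.9 and Olfr157 at 71.1, 71.5, 69.0 and 77.3, while the lowest value, 29.3, was that of Olfr1393 in KO-1. Of the Hox genes, which pattern the body axis, 7 of 39 had a region, led by Hoxa4 at 84.5, 85.3, 83.3 and 85.7, and 15 more had one in 1 to 3 libraries.

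**Figure D4:**
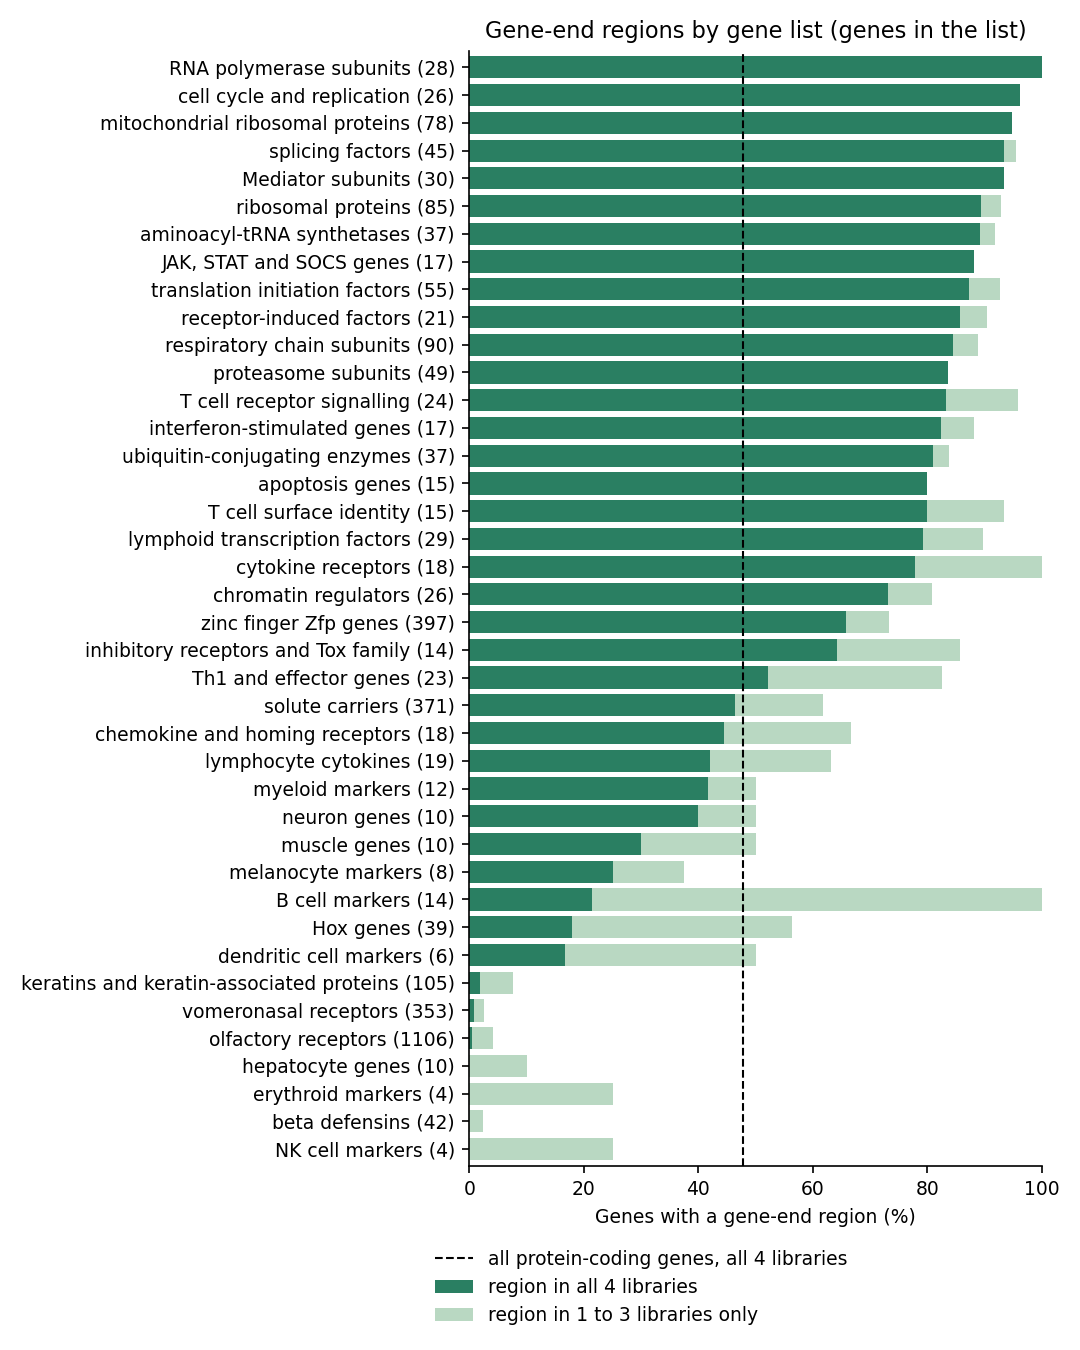
Share of genes (percent) with a shared gene-end region (dark) or with one in 1 to 3 libraries only (light), for 40 gene lists with their sizes, and the 47.9% of all protein-coding genes (dashed). Lists of basic machinery stand at the top, T cell lists in the upper and middle part, and sensory receptors near 0.

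Genes of T cell receptor signalling, T cell surface identity and lymphoid transcription factors had a region more often than all genes, with median percentiles below those of all the regions. Genes of T cell receptor signalling had one in 20 of 24 cases, with medians of 75.1, 80.7, 75.8 and 80.3. Nck1, an adaptor (chromosome 9, 100545363 to 100546776), ranked at 98.4, 98.4, 98.4 and 95.2, and Bcl10, whose promoter is printed above, at 96.4, 95.4, 97.7 and 93.5. Lat, the scaffold of the receptor signal, had 86.4, 92.6, 86.3 and 95.3. Lck, the kinase that starts that signal, ranked at 47.2, 49.9, 43.1 and 48.0 at its gene end, with the libraries within 7 points of each other. Ptpn22 had no region at an end and Ptpn6, Csk and Fyb had one in 1 to 3 libraries; for Ptpn22, Csk and Fyb a shared region lay at another listed start.

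Surface molecules that define T cells had a region in 12 of 15 cases, with medians of 67.4, 66.1, 57.3 and 68.7. Counting only peaks with a −log10 q of at least 10 left 7 of these genes. Cd28, the costimulatory receptor, ranked at 81.1, 89.0, 79.8 and 81.2, and Cd44, which marks activated cells, at 82.1, 79.8, 80.8 and 88.7. Cd4 itself shared a region with Gpr162 (chromosome 6, 124863349 to 124864452) that ranked at 68.9, 67.1, 56.6 and 62.5. Cd8a had none, and Cd7 and Il7r had a region in 1 to 3 libraries. Of the markers of the labelled CD4 T cells, Cd4, Cd3e and Cd28 had a shared region, and so had Cd8b1, at 50.4, 56.6, 54.7 and 73.4. For Cd4, Cd28 and Cd8b1 no strand was listed, so the region may lie at the start or at the far end.

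The 3 genes whose proteins were gated high or low had shared regions, and since the gates used the proteins their order is given as values only. Entpd1, which encodes CD39, ranked at 98.1, 95.7, 97.9 and 99.3, the highest of the list of inhibitory receptors and the Tox family by the lowest-library percentile. Pdcd1, which encodes PD1, ranked at 53.3 and 57.7 in WT and at 64.2 and 65.9 in KO, and Lag3 at 69.7, 70.9, 65.2 and 76.0 at 1 of its regions and at 65.1, 79.8, 49.7 and 47.3 at the other. The 2 WT values at Pdcd1 were below both KO values, those at Lag3 overlapped them in the first region and lay above them in the second. Tox itself had its gene-end region in 1 to 3 libraries and is no member, whereas Tox2 (79.5, 77.6, 78.0, 84.6) and Tox4 (96.6, 96.8, 94.5, 94.6) are. Of this list 9 of 14 genes had a region, Havcr2 and Cd244a had one in 1 to 3 libraries like Tox, and Cd160 and Tox3 had none.

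Th1 and effector genes had one in 12 of 23 cases, or 52.2% where all genes had 47.9%. Of the chains of the interferon gamma receptor, Ifngr1 ranked at 95.7, 93.5, 97.5 and 93.4 and Ifngr2 had no region at an end. Irf1, an interferon-induced factor, had 88.2, 90.4, 85.9 and 89.2. Tbx21, which encodes the Th1 factor T-bet, had 62.7, 53.8, 57.9 and 71.3. Ifng, Prf1, Ccl3, Ccl4, Cxcr3, Il18r1 and Il12rb2 had a gene-end region in 1 to 3 libraries. Gzmb, Ccl5 and Stat4 had none, though Stat4 had a shared region at another listed start. Of lymphocyte cytokine genes 8 of 19 had a region, with Il21 (follicular help) at 69.4, 71.2, 67.2 and 70.8 and none for Il17a, Il17f, Il10, Il22, Il13, Il5 or Il9. Il4, Csf2, Il3 and Cd40lg had one in 1 to 3 libraries. Among chemokine and homing receptors the count was 8 of 18, with Ccr7, the lymph node homing receptor, at 78.9, 82.6, 78.2 and 79.0 in 1 region. A second Ccr7 region ranked at 1.07, 31.8, 37.4 and 65.5, higher in both KO libraries.

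Transcription factors of lymphocytes had a region for 23 of 29 genes, with Prdm1 (Blimp-1) highest at 95.5, 93.4, 95.6 and 99.2, and Foxp3 without one. Factors induced through the receptor had one for 18 of 21 genes, with a median width of 1390 bp against 1129 bp for all the regions. Jun, at 2284 bp, ranked at 81.3, 79.1, 78.2 and 77.8, and Nr4a1 at 68.8, 74.3, 71.0 and 71.9. JAK, STAT and SOCS genes had one for 15 of 17 genes (median width 1439.5 bp), interferon-stimulated genes for 14 of 17, cytokine receptors for 14 of 18 and apoptosis genes for 12 of 15. Il9r, a cytokine receptor gene, ranked above 99 in every library (99.3, 99.3, 99.1, 99.0).

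Across the 9654 regions Spearman's rho of the fold percentile was 0.947 between the WT libraries, 0.901 between the KO libraries and 0.908 to 0.921 between libraries of different genotype. Away from gene ends, over 17177 regions, the same values were 0.866, 0.795 and 0.659 to 0.684. These are descriptions across regions, which share library and depth and are not independent. Away from gene ends both same-genotype values were above all 4 cross-genotype ones, and at gene ends the KO pair stood below all 4 cross-genotype pairs. Summits of 2 libraries lay a median of 9 to 13 bp apart, within 50 bp in 77.9% to 83.8% of the regions. The 4 percentiles of a region spanned a median of 6.82 points, against 21.2 points away from gene ends, and 22.5 points in the weakest of the 4 strength groups against 2.68 in the strongest, where percentiles are bounded at 100. Hsd17b7 and Cdc25c had the smallest spans. Gm3336 with Iqcn had among the largest, and there 1 library stood alone, with 74.8, 76.1, 5.89 and 81.2.

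Regions whose 2 WT percentiles both exceeded both KO percentiles numbered 3089, or 32.0% of 9654, where 25.9% of all 26867 shared regions did so. The reverse order was seen in 827 regions (8.57%), against 16.5% of all shared regions. The median difference of the WT and KO means over the 9654 regions was 1.62 points. A difference over 10 points was found in 673 of the WT-higher and 206 of the KO-higher regions. These were 6.97% and 2.13% of the 9654, against 12.05% and 10.46% of all 26867 shared regions. Differences of that size were less frequent at gene ends in both directions, although the WT-higher order itself was more frequent there. All shared regions include the 9654, and away from gene ends the shares were 14.9% WT-higher and 15.2% KO-higher. Percentiles have an upper bound, which leaves high-ranking regions less room for a gap. The median span of a region's percentiles fell from 22.5 points in the weakest strength group to 2.68 in the strongest. Regions of equal rank were not compared, so a difference of gene ends beyond their rank was not tested. An exact two-sided permutation test of 2 libraries against 2 cannot give a p below 0.33, so no region was tested alone. The order differed between pairs of libraries, and WT-1 was above KO-2 in 52.4% of the regions and WT-2 above KO-1 in 75.6%. With peaks of a −log10 q of at least 5 only, the shares were 46.4% and 4.51%. With the 40000 strongest peaks of each list by −log10 p, the shares away from gene ends were 18.3% and 32.5%. At gene ends the counts were 1963 (21.2%) and 1402 (15.1%). Without KO-1 they were 4376 and 3081, without WT-1 4952 and 1521, without WT-2 4107 and 2002 and without KO-2 6141 and 1755. Ranks within lists of different lengths cannot show whether accessibility changed.

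**Figure D5:**
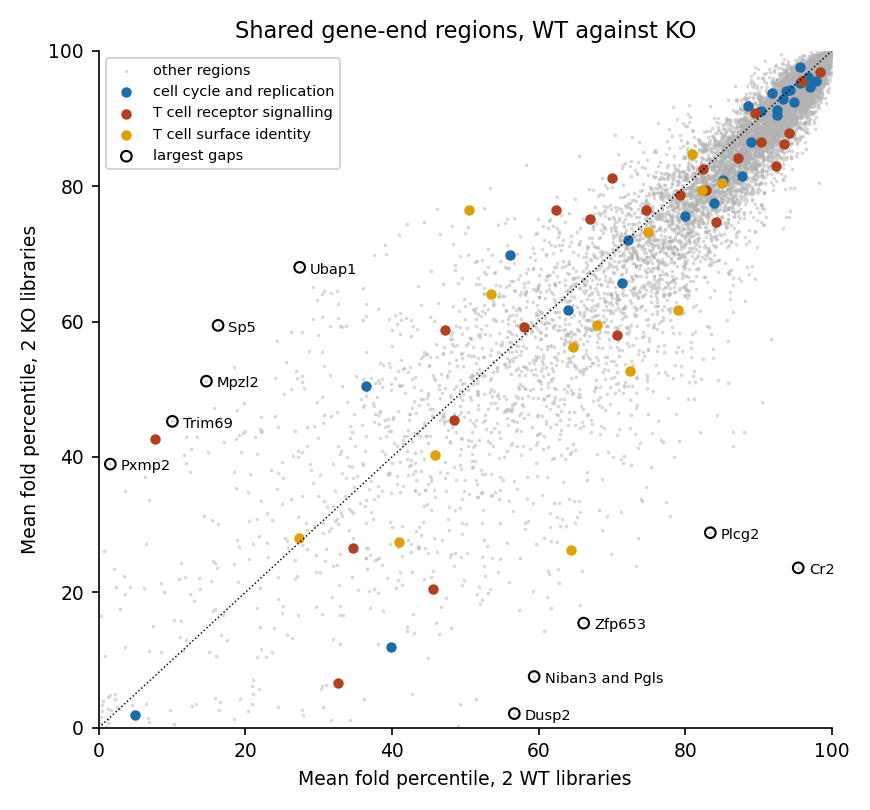
Mean fold percentile of each shared gene-end region in the 2 WT libraries (x axis) and the 2 KO libraries (y axis), with cell cycle, T cell receptor signalling and T cell surface genes in colour and the regions with the 5 largest gaps in each direction ringed. Most points lie close to the dotted line of equal ranks in the upper right corner, and Cr2 and Plcg2 lie farthest below it.

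Among the regions with the largest gap towards WT, Cr2 (chromosome 1, 195176278 to 195176958), the complement receptor of B cells and follicular dendritic cells, had a fold of 14.6 and 14.5 in WT-1 and WT-2 and of 2.78 and 3.43 in KO-1 and KO-2, and percentiles of 95.7, 95.2, 14.7 and 32.6. Plcg2, which signals from the B cell receptor (chromosome 8, 117497964 to 117499446), had folds of 8.14, 10.3, 3.05 and 3.26, and its peaks were 1476 and 1369 bp wide in WT but 150 and 164 bp in KO. Dusp2, a phosphatase of MAP kinases, ranked at 54.2, 59.2, 2.72 and 1.49, Niban3 with Pgls at 59.7, 59.1, 8.03 and 7.11, and Zfp653 at 66.6, 65.7, 8.36 and 22.6. In these 5 regions the groups did not overlap, as the choice requires. With peaks ranked by −log10 q in place of fold, the gap at Dusp2 went from 54.6 to 25.1 points, that at Niban3 with Pgls from 51.8 to 29.0 and that at Zfp653 from 50.7 to 30.7.

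The largest gaps towards KO were smaller. Sp5, a zinc finger factor (chromosome 2, 70474921 to 70475686), ranked at 19.1, 13.5, 50.4 and 68.5, and Ubap1, a subunit of the ESCRT sorting machinery, at 34.3, 20.5, 64.2 and 71.8. Pxmp2, a channel of the peroxisome membrane, had 1.88, 1.29, 45.6 and 32.3, Mpzl2 7.65, 21.7, 40.2 and 62.2, and Trim69 18.5, 1.66, 47.2 and 43.3. Within the T cell lists the cytokine gene Il2 ranked at 18.6 and 33.8 in WT and 52.6 and 64.4 in KO, and Tnf at 28.2, 27.1, 43.7 and 58.5. The opposite order was seen at Tnfsf8, a ligand of the TNF family, with 37.9, 60.7, 2.58 and 4.35, and at Cd2, an adhesion receptor, with 63.9, 65.0 in WT and 20.01 and 32.6 in KO. Irf4, a factor induced through the receptor, had 77.7, 73.4, 57.8 and 64.5 at its start and 71.6, 58.8, 6.02 and 56.1 at its far end. Il21r had 51.9, 51.8, 8.69 and 32.9. Eomes (64.0, 57.1, 52.5, 44.6) and Ptprc, the gene of the Ly5 marker (70.8, 74.0, 58.0, 47.4), were ordered alike. The sort also used the Ly5 type, which went with genotype, so the order at Ptprc is given as values only. Of the 10 regions of the cytokine list 3 were higher in WT and 1 in KO, near the 32.0% and 8.57% of all 9654 regions. Not all lists were near these shares. Th1 and effector genes had 3 higher in WT and 4 in KO of 13 regions. In the same order, chemokine and homing receptors had 2 and 5 of 11, and T cell receptor signalling 9 and 6 of 24. T cell surface identity had 5 and 1 of 14, lymphoid transcription factors 11 and 3 of 25, and cytokine receptors 6 and 0 of 16. The lists are small and were not tested.

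Most B cell marker regions had a peak in the WT libraries and none in the KO libraries. The 14 B cell marker genes had 23 gene-end regions in all, and a peak was present in 21 and 22 of them in WT and in 4 and 6 in KO. Their summed percentile was 1136 and 1275 in WT against 220 and 308 in KO, and 9 of the genes, among them Ms4a1 and Pax5, had no gene-end peak in either KO library. Only 3 of the 14, Cr2, Ebf1 and Pou2af1, had a region shared by all 4 libraries, and 5 had one when KO-1 was left out. Ebf1 ranked at 82.1, 80.3, 29.6 and 75.8. The 2 Pou2af1 regions went the other way or overlapped, with 81.7, 83.6, 90.3 and 85.6 and with 85.3, 86.0, 85.7 and 94.0. All the libraries came from a CD4+ gate, and the part of other cells in the order of Cr2, Plcg2 and the other regions was not tested. Myeloid markers had 7 gene-end regions, with a peak in 7, 7, 6 and 6 of them, and summed percentiles of 375, 393, 324 and 403. Dendritic cell markers had 6, with a peak in 4, 4, 2 and 2 of them and summed percentiles of 211, 218, 40.7 and 68.2. For comparison, genes of T cell surface identity had 27 gene-end regions, with a peak in 21, 19, 18 and 23 of them. Those of T cell receptor signalling had 35, with a peak in 27, 31, 31 and 29. Shared regions were found at 5 of 12 myeloid, 1 of 6 dendritic cell, 0 of 4 NK cell, 0 of 4 erythroid and 0 of 10 hepatocyte genes. Of 8 melanocyte markers 2 had one, namely Mitf (97.8, 93.8, 90.1, 99.4) and Pmel, whose region (98.0, 99.2, 98.4, 98.9) is also that of Rab5b, while Tyr, Tyrp1, Dct, Slc45a2 and Sox10 had no region at an end. Neuron genes had one in 4 of 10 cases, with Syn1 at 86.1, 87.8, 83.2 and 87.4, and muscle genes in 3 of 10, with Actn2 at 85.3, 87.8, 88.3 and 83.6.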

How the data were processed

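ATAC-seq was made from 2 WT and 2 KO libraries, sorted, frozen, thawed and transposed, per the labels' protocols. The tools named in the submitters' processing notes are BWA, MACS2, SAMtools, Picard and deepTools, with GRCm38 (mm10). For versions, settings and any shift of reads for the transposase, nothing was given in the sources used here. Each library had its own deposited peak list, so libraries could be compared one by one. The fold enrichment that the authors deposited is a ratio within 1 library. The −log10 q that the authors deposited served as a filter and as another ranking. The deposited −log10 p chose the 40000 strongest peaks where lists of equal length were compared. The deposited score was not used. These values are the authors' own.

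Python 3.11, pandas 2.3.3, numpy 2.4.6 and scipy 1.17.1 were used. Peaks were merged at 1 bp of overlap. The peak of highest fold stood for a library in a region, and its percentile within the list, from 0 to 100, was the measure. Widths are summed peak widths. Genes came from RefSeq (GRCm38.p6, 21627 protein-coding genes on the autosomes and X), matched by position, and strand and starts from the RefSeq promoter table, which lists 17273 of them (79.9%). Coordinates are 1-based. The scripts were tested on simulated data.

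The members and the gene lists were chosen with earlier results of these data known. Named genes are the 10 highest and 5 lowest regions, the 5 largest gaps in each direction, the regions beside the limits, the largest and smallest spans, and per list up to 4 genes of highest lowest-library percentile with, for lists of up to 25 genes, those without a region. Of the last kind, the T cell receptor, surface, inhibitory, Th1 and cytokine lists are named in full and the other lists by counts and a few examples. Lck, Cd4, Cd3e, Cd8b1, Pdcd1, Lag3, Tbx21, Il2, Tnf, Tnfsf8, Cd2, Irf4, Il21r, Eomes, Ptprc, Jun, Nr4a1, Dennd2d, Foxp3, Rps25, Rpl10l, Cox6b2 and Ccna2 are outside this rule and were named after their values were seen. Alternatives were other thresholds, overlaps, limits and rankings, lists of equal length, each library left out and a replicate block. Depth is unknown, so no counting interval was set.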

Additional observations from a re-analysis of the deposited data

How the results depend on the processing

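The lead of gene ends over other regions kept its direction under the alternatives run. A count or share was called moved when it changed by more than a set factor. A mean over libraries was called moved when it changed by more than its SD. Of the main results under the alternatives, 20 moved and 94 did not. The number of regions ran from 8069 (peaks with a −log10 q of at least 10) to 11104 (2 kb from a gene end), and the genes covered from 42.2% to 51.8%. With a −log10 q of at least 5 and of at least 10, the mean over libraries of the median percentile was 83.0 and 78.7 in place of 88.1, the count of KO-higher regions 401 and 332 in place of 827, and the mean rho 0.902 and 0.879 in place of 0.918. With the 40000 strongest peaks of each list by −log10 p, the median percentile was 84.6, and WT-higher and KO-higher regions numbered 1963 and 1402. The lead of gene ends was 25.6 points both with a −log10 q of at least 5 and with lists of equal length, in place of 21.6. Ranking by −log10 q gave a mean rho of 0.952. With 1 library left out, WT-higher regions ran from 4107 to 6141 and KO-higher ones from 1521 to 3081, as fewer libraries have to be ordered. The number of regions then ran from 9810 to 10245, mean rho from 0.913 to 0.936, the median percentile from 87.3 to 88.2, the median width from 945 to 965 bp and the lead from 22.5 to 24.2 points. The cause of the other shifts was not tested.

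The labels number the libraries of both genotypes 1 and 2, but do not say what a number shares. Deviations of same-numbered libraries from their genotype's mean correlated at 0.0548 across the 9654 regions. Under a replicate block, with WT above KO within both numbered pairs, 4187 regions were WT-higher and 1347 KO-higher. Depth and removed peaks limit what an absent peak can mean.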
